A study of Mus musculus with 14 samples.

Results

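Genes of glycolysis and of the response to low oxygen were followed in repeatedly activated T helper 1 (Th1) cells after knock-down of the microRNA miR-31. The set holds 35 genes chosen by name, 21 of glucose uptake and glycolysis and 14 of the hypoxia response, out of 18194 genes measured on the arrays. The choice was made with earlier results of these data known. Of the 35, 32 had a probe set assigned to a single gene symbol. Gpi1, Eno1 and Bnip3l had none and have no value here. All 32 measured members were among the 10916 genes kept for testing, which are the 60% of genes with the highest mean signal over all arrays.

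Glycolysis splits glucose into pyruvate, and activated T cells send much of that pyruvate to lactate even when oxygen is present. Glucose enters through the transporters Slc2a1 (GLUT1) and Slc2a3 (GLUT3), is trapped by the hexokinases Hk1 and Hk2, committed by the phosphofructokinases Pfkl, Pfkm and Pfkp, and leaves as lactate through Slc16a3 (MCT4). The transcription factor HIF-1, whose alpha subunit is encoded by Hif1a, raises many of these genes when oxygen falls, while the prolyl hydroxylases Egln1 and Egln3 mark HIF-1 alpha for degradation when oxygen is present. In T cells HIF-1 and Myc are both known to drive glycolytic genes after antigen receptor stimulation.

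The cells came from OT-II mice, 6 to 10 weeks old, which carry a transgenic T cell receptor for an ovalbumin peptide. Naïve CD4+CD62Lhi cells of spleen and lymph nodes went through 4 rounds of stimulation with irradiated antigen-presenting cells under Th1 conditions with IL-12 and an antibody to IL-4, with IL-2 present from the second round. They were then given 1 µM Antagomir-31, an antisense oligonucleotide to miR-31, or 1 µM of the scrambled control Antagomir-SCR, and were reactivated with plate-bound antibodies to CD3 and CD28 in the presence of the same cytokines. Total RNA was taken 36, 48 and 72 h after treatment and hybridized to 14 Mouse 430_2 arrays. Each treatment had 2 arrays at 36 h, another 2 at 48 h, and 3 for the last time. All groups shared the mouse strain, the cytokines, the reactivation and exposure to an oligonucleotide, and no resting culture and no culture without an oligonucleotide was analysed here. The labels do not say that arrays of a group came from separate cultures, so all p-values measure the spread between these arrays, which may be technical.

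The target of Antagomir-31 is shown because it defines the treatment. Mature mouse miR-31-5p (RefSeq, GRCm38.p6, chr4:88910614-88910635, minus strand) has 22 bases, and its seed, bases 2 to 8, is in capitals.
miR-31-5p: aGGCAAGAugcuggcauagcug
No probe set is named for miR-31 in the annotation used, so the knock-down itself could not be checked on these arrays.

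Signals are log2 intensities. The deposited values had been summarised by robust multi-array average (RMA), apparently for each time point separately, since the median array intensity was 21.8 to 23.8 at 36 and 48 h and 27.9 to 28.4 at 72 h. Time and normalization run therefore cannot be told apart. The log2 signal of the median gene kept moved by 0.28 from 36 to 72 h in control cells, so changes over time are also given relative to this median. A gene was called with an adjusted p below 0.05 in limma (Benjamini-Hochberg over all 10916 genes), and a change over time only if it kept that call and direction as deposited, after quantile normalization of all arrays and after centring each array on its median. The 11 Th1 marker genes were measured with mean log2 signals of 5.82 to 13.58, whereas the markers of erythroid cells, CD8 T cells, dendritic cells, B cells and the macrophage and monocyte lineage lay between 3.23 and 6.13. The summed intensity of the Th1 markers was 22968 to 32724 per array and that of each other list at most 243.

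In control cells, most glycolytic genes had risen by 72 h, whereas hypoxia-response genes were split between rise and fall. From 36 to 72 h in Antagomir-SCR cells, 26 of 32 members were called, 18 higher and 8 lower, against a background of 51.2% of all genes (34.2% higher and 17% lower). Over all genes the split between higher and lower followed the scaling, with 6719 and 1860 as deposited, 3883 and 3886 after quantile normalization and 4194 and 3607 after median centring, which is why a call had to hold in all 3. Among the 19 measured glycolysis members 12 rose, 2 fell and 5 were not called. Among the 13 measured hypoxia-response members 6 rose, 6 fell and only Hif1a was not called. The median change was 0.525 for the glycolysis members and -0.01 for the hypoxia-response members, against 0.28 for all genes kept. As these are whole-culture RNA measurements, a change in RNA per cell and a change in the share of a kind of cell cannot be told apart.

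Of the 13 measured enzymes of glycolysis, 9 rose, Pfkp fell and Aldoa, Pgk1 and Ldha were not called in all 3 scalings. Pfkl, the liver isoform of the phosphofructokinase that commits glucose to glycolysis, gave log2 signals of 7.53 and 7.45 on the control arrays at 36 h, 7.08 and 7.32 at 48 h, and 8.98, 8.87 and 8.84 at 72 h. Every 72 h array lay above every earlier one. The change from 36 to 72 h was 1.41 ± 0.12 (log2, SE; adjusted p = 1.88e-07), or 2.65-fold as deposited and 2.19-fold relative to the median gene. The other probe sets of Pfkl, 2 in number, read 1.37 and 1.52.

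Aldoc, an aldolase that cuts fructose bisphosphate into trioses, stood at 6.90 and 7.0 at 36 h, 7.34 and 7.12 at 48 h, and 7.89, 8.14 and 7.97 at 72 h in control cells, a rise of 1.05 ± 0.10 (adjusted p = 4.73e-07). Pkm, the pyruvate kinase of the last step, went from 10.86 and 11.00 at 36 h and 10.78 and 10.82 at 48 h to 11.89, 11.93 and 12.06 at 72 h, a rise of 1.03 ± 0.09 (adjusted p = 2.84e-07). Both genes had no array at 72 h within the range of the earlier times. Hk1, the hexokinase found in most tissues, rose by 0.945 ± 0.06 and Hk2, the inducible hexokinase, by 0.58 ± 0.05. Rises were also measured for Pfkm (0.84 ± 0.05), Gapdh (0.63 ± 0.04), Tpi1 (0.57 ± 0.04) and Pgam1 (0.53 ± 0.04). Gapdh was read from the 3′ control probe set of the array, which also enters the Gapdh measure of RNA degradation given below. The probe sets used for Tpi1 and Aldoa are of a kind open to cross-hybridization (_x_at). Ldha, which turns pyruvate into lactate, read 0.30 ± 0.04 as deposited and 0.025 relative to the median gene, and Aldoa and Pgk1 read 0.07 and -0.05 relative to it.

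Unlike Pfkl and Pfkm, the isoform Pfkp was lower at 72 h. Pfkp, the platelet isoform, measured 11.24 and 11.14 at 36 h, 11.27 and 11.22 at 48 h, and 10.91, 11.00 and 10.99 at 72 h in control cells. Its 72 h arrays were below all earlier ones, and the gene fell by 0.22 ± 0.05 (adjusted p = 0.00155) as the brightest probe set reads it. The other probe sets of Pfkp read 0.75 and 0.03, so the direction for this isoform depends on the probe set.

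Transporters also differed from one another. Slc16a3, the lactate exporter, had log2 signals of 5.55 and 5.47 at 36 h, 5.10 and 5.03 at 48 h, and 6.46, 6.40 and 6.19 at 72 h in control cells. It was lowest at 48 h and highest at 72 h without overlap, fell by 0.45 ± 0.08 from 36 to 48 h (adjusted p = 0.00163) and rose by 1.29 ± 0.07 from 48 to 72 h (adjusted p = 4.17e-09). Slc2a3 gave 11.38 and 11.31, then 11.50 and 11.37, then 10.86, 10.90 and 10.89 at 36, 48 and 72 h, and fell by 0.46 ± 0.06 from 36 to 72 h (adjusted p = 1.59e-05). A second bright probe set of Slc2a3 read -0.69, whereas a dim one, with a mean log2 signal of 5.45, read 0.56. Slc2a1, the main glucose transporter of activated T cells, gave 11.09 and 11.08, then 10.82 and 10.78, then 11.09, 11.14 and 11.00. It was lowest at 48 h and fell by 0.29 ± 0.06 from 36 h (adjusted p = 0.00319), while the 36 and 72 h arrays overlapped. One of its other probe sets read 1.18 from 36 to 72 h.

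Among the regulators of flux, Pfkfb3 and Pfkfb4 make fructose 2,6-bisphosphate, the activator of phosphofructokinase, and Pdk1 keeps pyruvate out of the mitochondrial cycle by inhibiting pyruvate dehydrogenase. Pfkfb3 rose by 0.51 ± 0.05 and Pdk1 by 0.52 ± 0.07 from 36 to 72 h. Pfkfb4 had its step earlier, from 5.70 and 5.63 at 36 h to 6.11 and 6.06 at 48 h, a rise of 0.42 ± 0.09 (adjusted p = 0.00566), and measured 6.16, 6.24 and 6.09 at 72 h. It was the only member called higher between 36 and 48 h. In this step 6 members were called (1 higher, 5 lower) against 19.1% of all genes (11.2% higher and 7.89% lower). The step from 36 to 48 h rests on 2 arrays a time: without Antagomir-SCR replicate 1 at 48 h 3 members were called, and the calls for Slc2a1 and P4ha1 were lost without any one of the 4 arrays. From 48 to 72 h 25 members were called, 19 higher and 6 lower, against 44.4% of all genes (30.3% higher and 14.1% lower).

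**Figure D1:**
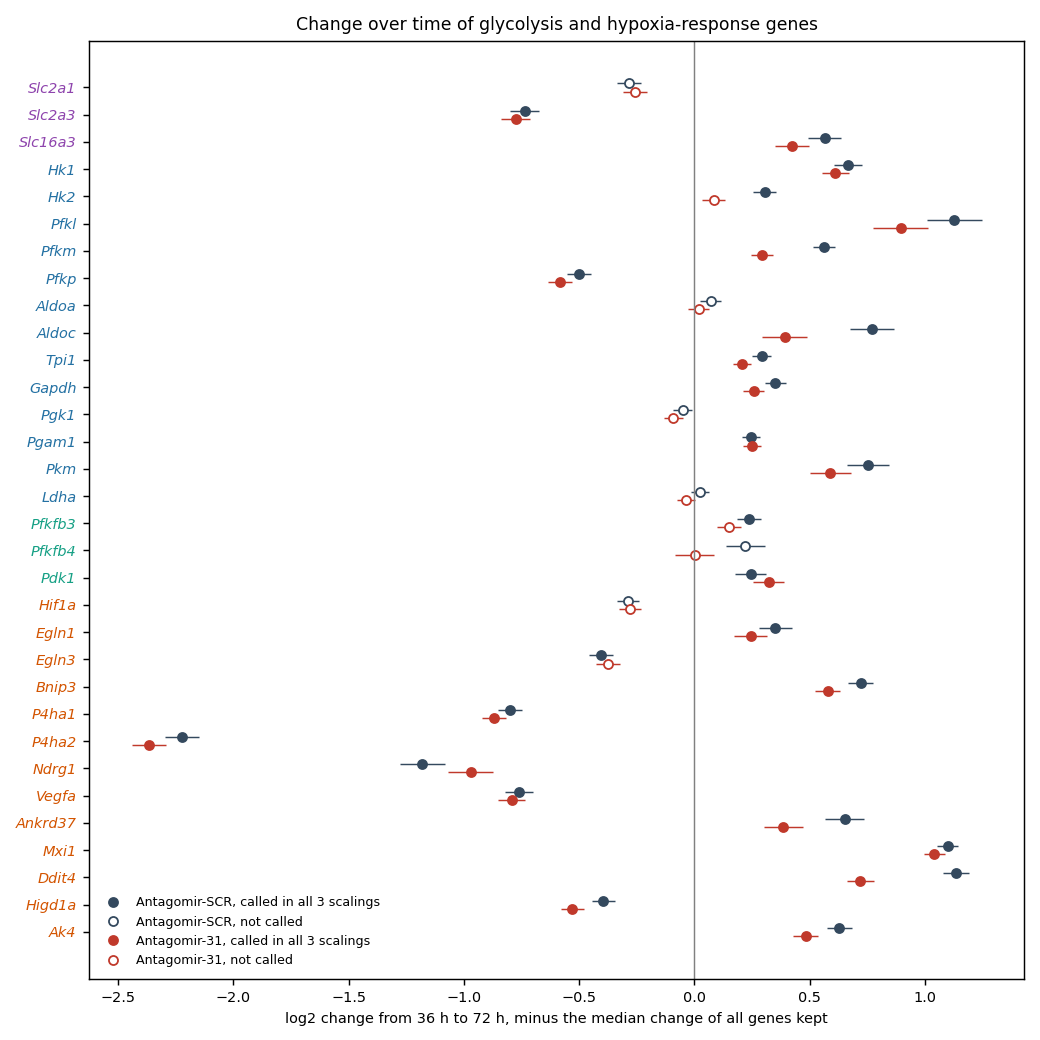
Log2 change from 36 to 72 h minus the median change of all genes kept, for the 32 measured members in Antagomir-SCR (dark) and Antagomir-31 (red) cells. Bars are SE of the limma fit, filled points passed in all 3 scalings, and the label colours mark transporters, enzymes, regulators and hypoxia-response genes from top to bottom. Most enzymes lie right of 0, while hypoxia-response genes spread from P4ha2 at -2.22 to Ddit4 at 1.14 in control cells.

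The hypoxia-response genes that rose were Ddit4, Mxi1, Bnip3, Ankrd37, Ak4 and Egln1. Ddit4 (REDD1), an inhibitor of mTORC1, went from 9.64 and 9.72 at 36 h and 9.76 and 9.66 at 48 h to 11.11, 11.12 and 11.05 at 72 h, a rise of 1.41 ± 0.06 (2.66-fold, adjusted p = 2.16e-10). Mxi1, a repressor that competes with Myc for its partner Max, went from 8.67 and 8.66 and then 8.76 and 8.79 to 10.03, 10.02 and 10.08, a rise of 1.38 ± 0.05 (2.60-fold, adjusted p = 3.89e-11), and its second probe set read 2.11. For both, the 3 arrays at 72 h lay above all 4 earlier control arrays. Bnip3, a mitophagy receptor, gave 10.35 and 10.29, then 9.97 and 9.96, then 11.33, 11.36 and 11.27, falling by 0.36 ± 0.06 to 48 h (adjusted p = 0.00107) and rising by 1.36 ± 0.05 from there (adjusted p = 1.90e-10). Ak4, a mitochondrial adenylate kinase, fell by 0.29 ± 0.06 to 48 h (adjusted p = 0.00385) and rose by 1.20 ± 0.06 after it. The call for its fall to 48 h was lost without replicate 1 of 36 h or of 48 h. It held in 10 of 14 alternative settings, with values from -0.337 to -0.0174. None of the 4 other probe sets of Ak4 was called in this step, and 3 of them shared the sign. Egln1, the main oxygen sensor for HIF-1 alpha, rose by 0.63 ± 0.07 and Ankrd37 by 0.93 ± 0.09 from 36 to 72 h.

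P4ha2, Ndrg1, P4ha1, Vegfa, Egln3 and Higd1a were lower at 72 h. P4ha2, a collagen prolyl 4-hydroxylase subunit, had the widest change among the 32 members. Its control arrays read 8.50 and 8.57 at 36 h, 8.51 and 8.44 at 48 h, and 6.47, 6.65 and 6.66 at 72 h, and the gene fell by 1.945 ± 0.07 (0.26-fold, adjusted p = 1.05e-10), with a single probe set on the array. P4ha1, the partner isoform, fell in both steps, from 9.54 and 9.49 over 9.28 and 9.21 to 8.92, 9.02 and 9.04, by 0.52 ± 0.05 in all (adjusted p = 7.30e-07). Vegfa, an angiogenic growth factor, gave 7.06 and 7.09, then 7.24 and 7.19, then 6.62, 6.62 and 6.55, and fell by 0.48 ± 0.06 (adjusted p = 7.23e-06). In these 3 genes the 72 h arrays lay below every earlier control array.

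Ndrg1, a stress-responsive gene of the N-myc downstream regulated family, read 8.22 and 8.28, then 8.18 and 8.22, then 7.40, 7.43 and 7.21 in control cells, and fell by 0.90 ± 0.10 (adjusted p = 1.90e-06). Egln3 and Higd1a, a mitochondrial protein of the respiratory chain, fell by 0.13 ± 0.05 and 0.12 ± 0.05 as deposited, close to the threshold (adjusted p = 0.039 and 0.0425), and by 0.405 and 0.395 relative to the median gene. Hif1a itself gave 12.22 and 12.27, 12.18 and 12.17, and 12.21, 12.24 and 12.26, with overlapping arrays at 36 and 72 h and a change of -0.01 ± 0.05 (adjusted p = 0.845).

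Taken against 0 on the values as deposited, the probe sets of a gene gave the same sign for most rises and for none of the falls. Of the 18 members that rose from 36 to 72 h in control cells, 10 had more than 1 probe set, and in 8 of them (Aldoc, Egln1, Gapdh, Hk1, Mxi1, Pdk1, Pfkl and Tpi1) all were above 0. The exceptions were Ak4 and Pfkfb3, each with a dim probe set below 0 (-0.16 and -0.18). Of the 8 members that fell, 7 had more than 1 probe set and in 0 of them all were below 0. P4ha1 had a second probe set at 0.49 ± 0.17, Vegfa one at 0.30 ± 0.06, Egln3 one at 0.63 ± 0.06 and Higd1a a dim one at 1.71 ± 0.07. For Ndrg1 the 2 brightest probe sets read -0.90 and -0.34 and the other 3 read 0.01, 0.23 and 0.51. The median gene itself moved by 0.28 in this step, and 73.9% of all genes kept were above 0. Signs against 0 therefore favoured agreement among rises over agreement among falls. Hif1a had one probe set near 0 and others at 0.22, 0.84 and 1.24. P4ha2 had no second probe set.

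**Figure D2:**
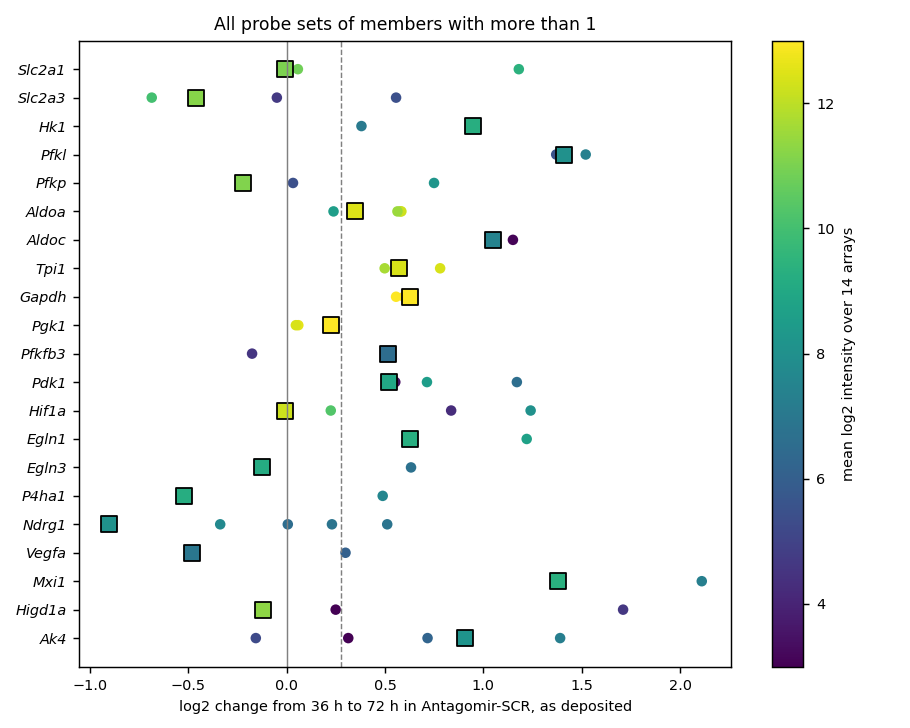
Log2 change from 36 to 72 h in Antagomir-SCR cells, as deposited, for every probe set of the 21 members with more than 1. Squares are the probe set used, circles the others, colour is the mean log2 intensity, and the dashed line is the median change of all genes kept (0.28). Squares and circles lie on the same side for Pfkl and Mxi1 and on opposite sides for P4ha1, Vegfa and Egln3.

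**Figure D3:**
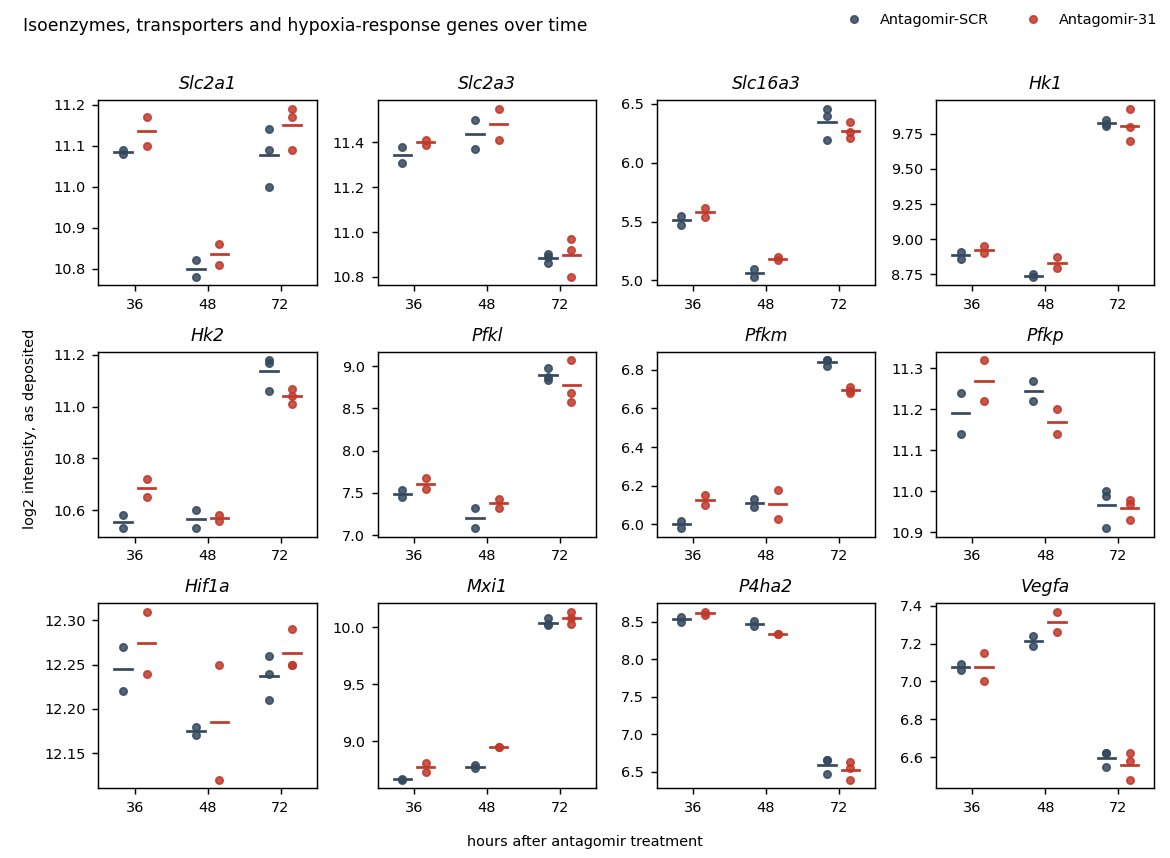
Log2 intensity on each of the 14 arrays for 12 members at 36, 48 and 72 h after treatment, in Antagomir-SCR (dark) and Antagomir-31 (red) cells. Points are arrays, bars are group means and each panel has its own scale. Slc16a3, Hk1, Hk2, Pfkl, Pfkm and Mxi1 were highest at 72 h, while Slc2a3, Pfkp, P4ha2 and Vegfa were lowest there.

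From 36 to 72 h most members were called alike in both arms. In Antagomir-31 cells 23 members were called from 36 to 72 h, 16 higher and 7 lower, against 50.3% of all genes (33.8% higher and 16.6% lower). All 23 were called in the same direction in Antagomir-SCR cells, and no member was called in opposite directions. Egln3, Hk2 and Pfkfb3 were called in Antagomir-SCR cells and not in Antagomir-31 cells, with changes of -0.10, 0.36 and 0.42 in the latter. P4ha2 fell by 2.10 and Mxi1 rose by 1.31 under Antagomir-31. From 36 to 48 h 3 members rose and 6 fell in Antagomir-31 cells, against 18% of all genes (10.4% and 7.63%), a count of 1 to 6 with 1 array left out. Of these, 1 rise and 4 falls were also called in control cells, while Higd1a, Ldha, Mxi1 and Vegfa were called in Antagomir-31 cells alone and Bnip3 in control cells alone. From 48 to 72 h 17 rose and 6 fell, against 44.5% (30.4% and 14.1%), all called alike in control cells, where Aldoc and Hk2 were called as well. A call in one arm alone does not show that the arms differed. The RNA also differed between times: the log2 difference between the 3′ and 5′ probe sets of beta-actin, a sign of RNA degradation, was 0.324 to 0.427 on the arrays of 36 and 48 h and 0.211 to 0.267 on those of 72 h. The same measure for Gapdh went the other way, from -0.046 to -0.012 at 36 and 48 h to -0.005 to 0.088 at 72 h. The markers moved with time as well. The summed intensity of the Th1 list lay between 31973 and 32724 on the 36 h arrays. It lay between 29563 and 30197 on those of 48 h and between 22968 and 24206 on those of 72 h. Such a sum is carried by the brightest genes of a list. Of the 11 Th1 markers, 4 were called higher and 3 lower from 36 to 72 h in control cells. Over all genes the shares were 34.2% and 17%. The median change of the Th1 markers was 0.05, against 0.28 for all genes kept. The sum of the B cell list lay between 71.1 and 79.0, 56.5 and 65.8, and 81.3 and 97.7 at 36, 48 and 72 h. Pax5, the only B cell marker bright enough to be tested, fell by 0.65 from 36 to 48 h and rose by 1.115 from 48 to 72 h in control cells. The part of these measures in the changes over time was not tested.

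Treatment with Antagomir-31 gave few calls. At 36 h no member was called and none of the 10916 genes was (0%), with 6 members (18.8%) and 585 genes (5.36%) at an unadjusted p below 0.05. At 48 h again no member and no gene (0%) was called, with 5 members (15.6%) and 653 genes (5.98%) at an unadjusted p below 0.05. At 72 h Ndrg1 alone of the 32 members was called, against 120 genes or 1.1% of all, of which 54 (0.495%) were higher and 66 (0.605%) lower under Antagomir-31. An unadjusted p below 0.05 was then found for 6 members (18.8%) and 17.7% of all genes. Over all genes this balance shifted with the scaling, to 78 higher and 60 lower after quantile normalization and to 42 and 103 after median centring.

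**Figure D4:**
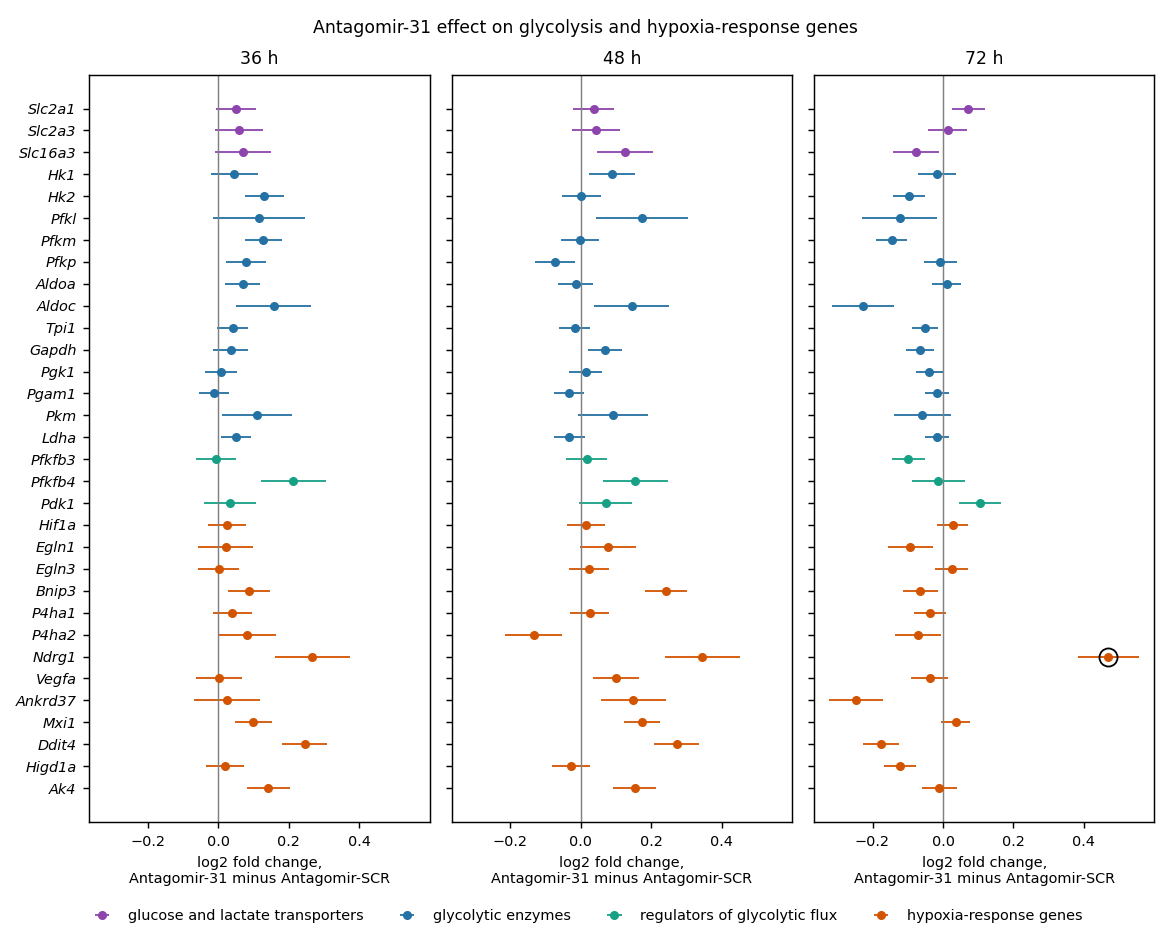
Log2 fold change of Antagomir-31 against Antagomir-SCR at 36, 48 and 72 h for the 32 measured members, coloured by role, with bars for the SE of the limma fit. The circled point is the only call, Ndrg1 at 72 h (0.47). At 36 h 30 of 32 points lie above 0, at 72 h 8 of 32.

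Ndrg1 was higher under Antagomir-31 at every time. At 36 h it measured 8.43 and 8.60 with Antagomir-31 and 8.22 and 8.28 with Antagomir-SCR, and at 48 h 8.61 and 8.49 against 8.18 and 8.22. At 72 h the Antagomir-31 arrays of replicates 2, 3 and 4 read 7.90, 7.95 and 7.61 and the Antagomir-SCR arrays 7.40, 7.43 and 7.21. The lowest Antagomir-31 array was above the highest control array at each time, a pattern found in 35 of the 10916 genes (0.321%). The log2 fold change was 0.27 ± 0.11 at 36 h (adjusted p = 0.907), 0.34 ± 0.11 at 48 h (adjusted p = 0.674) and 0.47 ± 0.09 at 72 h (1.38-fold, adjusted p = 0.0306). Averaged over the times it was 0.36 ± 0.06 (adjusted p = 0.0701), where 0 members and 2 genes (0.0183%, with 0.00916% in either direction) were called. The difference between the effects at 72 and 36 h was 0.20 ± 0.14 (adjusted p = 0.611).

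The call for Ndrg1 at 72 h was close to the threshold. It was lost (adjusted p = 0.0626 to 0.131) when any one of the Antagomir-31 arrays 2 and 3 or the Antagomir-SCR arrays 2, 3 and 4 was left out. It was kept (adjusted p = 0.00935) without Antagomir-31 array 4. The log2 fold change stayed between 0.40 and 0.57 in these fits. All 5 probe sets of Ndrg1 were higher under Antagomir-31 at all 3 times. At 72 h the other 4 read 0.24, 0.13, 0.05 and 0.03, of which none was called. The probe set used is of the kind open to cross-hybridization (_x_at), and without such probe sets the value at 72 h was 0.05 (adjusted p = 0.72).

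Ddit4 had the smallest p of the members at 36 and at 48 h and was below control at 72 h. At 36 h it read 9.96 and 9.88 with Antagomir-31 against 9.64 and 9.72 in control cells, and at 48 h 9.97 and 9.99 against 9.76 and 9.66. At 72 h it read 10.85, 11.01 and 10.88 against 11.11, 11.12 and 11.05. The groups did not overlap at any time, with Antagomir-31 higher at 36 and 48 h and lower at 72 h, under each of the 3 scalings. The log2 fold changes were 0.25 ± 0.06, 0.27 ± 0.06 and -0.18 ± 0.05 (adjusted p = 0.52, 0.599 and 0.112). The difference between the effects at 72 and 48 h was -0.45 ± 0.08 (adjusted p = 0.095), and between 72 and 36 h -0.42 ± 0.08 (adjusted p = 0.109), so neither passed the threshold. No member was called in either test, against 0.0366% of all genes in the first (0.0183% in each direction) and 0.0183% in the second (0.00916% in each direction). Among all genes 57 (0.522%) showed the same order of arrays, among the members Ddit4 and Gapdh. For Gapdh the differences were 0.035, 0.069 and -0.066, and its groups overlapped at 36 and 48 h after quantile normalization.

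Bnip3 and Mxi1 were next at 48 h. Bnip3 read 10.16 and 10.26 with Antagomir-31 against 9.97 and 9.96, a difference of 0.24 ± 0.06 (adjusted p = 0.615), and at 72 h 11.27, 11.29 and 11.21 against 11.33, 11.36 and 11.27, with overlap (-0.06 ± 0.05). Its change of effect from 48 to 72 h was -0.31 ± 0.08 (adjusted p = 0.25). Mxi1 read 8.95 on both Antagomir-31 arrays against 8.76 and 8.79, a difference of 0.17 ± 0.05 (adjusted p = 0.628). Averaged over the times, Mxi1 was 0.10 ± 0.03, Bnip3 0.09 ± 0.03 and Ddit4 0.11 ± 0.03 higher under Antagomir-31, with adjusted p of 0.237 to 0.399.

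Of the glycolytic enzymes, Pfkm and Hk2 had the smallest p at 36 h, when they were 0.13 ± 0.05 and 0.13 ± 0.06 higher under Antagomir-31 (adjusted p = 0.907 for both). Pfkm, the muscle isoform of phosphofructokinase, read 6.10 and 6.15 against 6.02 and 5.98 at 36 h, and 6.68, 6.69 and 6.71 against 6.85, 6.82 and 6.85 at 72 h. At 72 h it was lower without overlap, by -0.15 ± 0.04 (adjusted p = 0.113). Hk2 read 10.72 and 10.65 against 10.58 and 10.53 at 36 h, and its arrays overlapped at 48 and 72 h. Ankrd37 at 72 h read 7.48, 7.81 and 7.57 against 7.88, 7.85 and 7.88, and Higd1a 11.18, 11.23 and 11.18 against 11.37, 11.31 and 11.28. Both were lower without overlap, by -0.25 ± 0.08 (adjusted p = 0.126) and -0.12 ± 0.04 (adjusted p = 0.178).

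The study's list of putative miR-31 targets holds 3 of the members, Egln1, Egln3 and Ak4. None was called at any time. Egln1 was 0.02 ± 0.08, 0.08 ± 0.08 and -0.09 ± 0.06 at 36, 48 and 72 h, and Egln3 0.001, 0.024 and 0.025, with adjusted p of 0.489 to 1. For Egln3 the Antagomir-31 and control arrays overlapped at each time. For Egln1 they overlapped at 36 and 72 h, and at 48 h the Antagomir-31 arrays (8.92 and 9.01) were above the control arrays (8.89 and 8.88) in all 3 scalings. Ak4 read 7.94 and 8.04 against 7.89 and 7.81 at 36 h and 7.68 and 7.73 against 7.51 and 7.60 at 48 h, higher without overlap by 0.14 ± 0.06 (adjusted p = 0.907) and 0.15 ± 0.06 (adjusted p = 0.776). At 72 h it read 8.75, 8.77 and 8.71 against 8.81, 8.79 and 8.67, with overlap and a difference of -0.01 ± 0.05. A dim probe set of Ak4 was lower under Antagomir-31 at 36 h, and a pair of dim ones at 48 h.

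**Figure D5:**
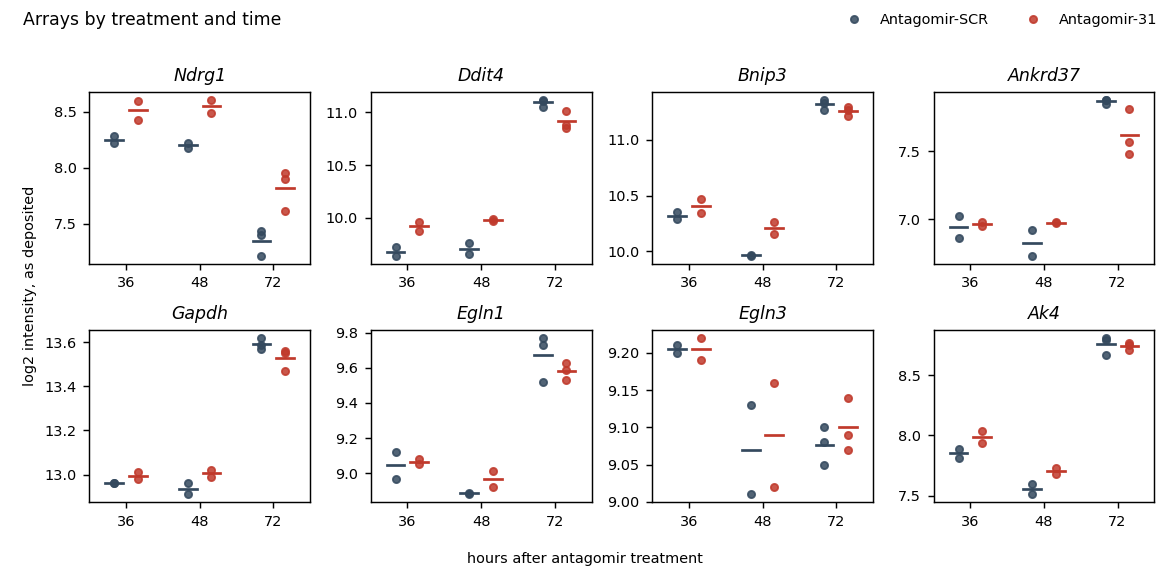
Log2 intensity on each array for Ndrg1, Ddit4, Bnip3, Ankrd37, Gapdh and the putative targets Egln1, Egln3 and Ak4 in Antagomir-SCR (dark) and Antagomir-31 (red) cells. Points are arrays, bars are group means and each panel has its own scale. Red lies above dark at all times for Ndrg1, and above at 36 and 48 h but below at 72 h for Ddit4.

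The signs of the effects over all members were mostly positive at 36 h and mostly negative at 72 h. At 36 h 30 of 32 members were above 0 (median 0.055, against 50.6% of all genes above 0 and a median of 0.001), and at 48 h 24 of 32 (median 0.056, against 45.6% and -0.007). At 72 h 8 of 32 were above 0 (median -0.039, against 46.2% and -0.009), and 1 of the 13 enzymes, Aldoa. At 36 h 15 members were higher without overlap of the arrays and 0 lower, against 15.4% and 13.9% of all genes. At 48 h 14 were higher and 5 lower, against 13.5% and 19.7%. At 72 h 1 was higher and 8 were lower, against 9.51% and 14.6%. After quantile normalization 27, 24 and 10 members were above 0 at the 3 times, and after median centring 28, 25 and 6. The median of all genes kept at 72 h moved as well, to 0.005 and -0.023 under these scalings. Since the members of a time share the same arrays, the counts of members are not independent of one another. The members were also chosen with earlier results of these data known, so the counts are no test of the set.

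Genes of the surrounding pathways gave no call with Antagomir-31. Of 15 tested regulators of HIF, 25 other hypoxia-response genes, 19 other genes of glycolysis and pyruvate use, 6 of the pentose phosphate pathway and 19 of Myc and mTORC1 regulation, 0 were called at 36, 48 or 72 h. At 72 h 27 of the 84 (32.1%) had an unadjusted p below 0.05, against 1937 of all genes (17.7%). The smallest p at 72 h belonged to Epas1 (HIF-2 alpha) among the HIF regulators, at 0.26 ± 0.10 (adjusted p = 0.186). Among the other lists it belonged to Ppp1r3b, a glycogen-targeting subunit, at 0.16 ± 0.05 (adjusted p = 0.129), the hexose transporter Slc2a6, at -0.33 ± 0.08 (adjusted p = 0.061), Rpia, of the pentose phosphate pathway, at -0.10 ± 0.03 (adjusted p = 0.169), and the Myc partner Max, at -0.28 ± 0.07 (adjusted p = 0.0808).

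From 36 to 72 h in control cells each of these lists had more genes called higher than lower, unlike the hypoxia-response members, with 6 of each. Of the HIF regulators 4 of 15 rose and 3 fell, with Epas1 up by 1.05 and Cited2, which competes with HIF for the coactivator p300, down by 1.14. Of the other hypoxia-response genes 9 of 25 rose and 2 fell. Of the other genes of glycolysis 5 of 19 rose and 3 fell, and of the pentose phosphate pathway 4 of 6 rose and 0 fell. Of the Myc and mTORC1 list 10 of 19 rose and 3 fell, with Myc up by 1.25 and Mycn by 2.38. Of all genes 51.2% were called, 34.2% higher and 17% lower. The shares called were 46.7%, 44.0%, 42.1%, 66.7% and 68.4% in that order, and 81.2% for the members.

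Promoter windows of 4 members are shown because Ddit4 and P4ha2 had the widest rise and fall from 36 to 72 h in control cells, and Bnip3 and Ldha hold the motif as a full E-box, Ldha with the most matches of any member window (5, with both strands of an E-box counted). The motif searched was ACGTG on either strand, the core of the hypoxia response element in its A form, which overlaps the E-box CACGTG that Myc and Max bind. Each line gives the 250 bases before an annotated RefSeq start site (GRCm38.p6), 5′ to 3′ in the direction of the gene, with matches in capitals. The windows are chr7:46845554-46845803 (plus strand) for Ldha, chr7:138909507-138909756 (minus) for Bnip3, chr10:59951771-59952020 (minus) for Ddit4 and chr11:54100674-54100923 (plus) for P4ha2.
Ldha: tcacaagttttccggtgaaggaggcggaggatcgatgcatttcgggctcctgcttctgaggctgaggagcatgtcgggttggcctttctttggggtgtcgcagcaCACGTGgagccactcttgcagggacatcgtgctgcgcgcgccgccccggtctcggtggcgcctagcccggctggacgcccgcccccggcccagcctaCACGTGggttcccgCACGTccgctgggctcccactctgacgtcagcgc
Bnip3: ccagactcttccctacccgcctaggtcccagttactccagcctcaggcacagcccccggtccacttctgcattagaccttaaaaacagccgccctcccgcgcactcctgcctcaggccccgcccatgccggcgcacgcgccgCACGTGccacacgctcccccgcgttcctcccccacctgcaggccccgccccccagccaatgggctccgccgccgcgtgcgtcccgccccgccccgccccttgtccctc
Ddit4: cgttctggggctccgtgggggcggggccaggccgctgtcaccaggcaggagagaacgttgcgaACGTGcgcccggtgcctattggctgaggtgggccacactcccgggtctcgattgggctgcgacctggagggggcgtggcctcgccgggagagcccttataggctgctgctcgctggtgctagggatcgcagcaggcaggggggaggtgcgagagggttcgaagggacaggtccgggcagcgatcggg
P4ha2: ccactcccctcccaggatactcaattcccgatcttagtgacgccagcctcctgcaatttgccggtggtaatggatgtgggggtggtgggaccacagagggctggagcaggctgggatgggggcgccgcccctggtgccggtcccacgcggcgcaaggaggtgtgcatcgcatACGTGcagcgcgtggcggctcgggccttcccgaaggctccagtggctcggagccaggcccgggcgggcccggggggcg
The first match began 145 bases before the start site in Ldha, 108 in Bnip3, 187 in Ddit4 and 78 in P4ha2. Ldha and Bnip3 hold the full E-box and Ddit4 and P4ha2 the core alone. The E-box also stood in a window each of Hif1a, Ak4, Pfkm and Pfkfb3, which are not shown. Another annotated window of Ldha, also not shown, held no match to ACGTG. From 36 to 72 h in control cells Ddit4 and Bnip3 rose and P4ha2 fell, while the change of Ldha was near that of the median gene.

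In windows from 250 bases before to 50 after each start site, 32 of the 35 members had an entry, with 51 windows between them. Slc2a3, Bnip3l and Ndrg1 had none. The motif was found in 29 of the 51 windows (56.9%), against 19.6% of all 32851 windows. Among the 7071 windows with at least 23 CG dinucleotides, the median of the members, the share was 29.1%. With the G form of the core (GCGTG) counted as well, 42 of the 51 windows (82.4%) had a match. That compares with 43.8% of all windows and 74.7% of the CG-rich ones. By gene, 25 of 32 members held the A form in at least 1 window, against 21.8% of 27025 genes. These were 13 of 20 glycolysis members and 12 of 12 hypoxia-response members. Genes were not matched for the number of windows or for CG dinucleotides, of which member windows had a median of 23 and all windows 7. The hypoxia-response members were chosen by name as genes of that response, so their count is no test of it. The E-box was in 6 of the 51 windows and in 7.15% of all. Members with the motif were found among both those that rose and those that fell, such as Ddit4 and P4ha2, and a match is a description of the letters, not a site.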

How the data were processed

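Total RNA of 14 samples was hybridized to Affymetrix Mouse 430_2 arrays. The deposited values are linear intensities that the authors computed with RMA (GCOS, RMA and affy are named in the submitters' processing notes, with no version). Detection calls were left aside. Intensities were taken to log2. Probe sets were named from the platform annotation: of 45101, 34958 had 1 gene symbol, 932 several and 9211 none. The probe set with the highest mean log2 stood for a gene (18194 genes), and the 60% brightest (10916) were tested. A single limma model (limma 3.58.1, R 4.3.3, Python 3.11.15) with 6 groups gave each comparison, with Benjamini-Hochberg adjustment over all genes kept and errors given as SE. The fit was tested on simulated data. Members with full values were those called, or the 5 with the smallest p in a comparison. Others were described by role. The members and all gene lists were chosen with earlier results of these data known. Replicate numbers were not used to pair arrays: deviations of same-numbered arrays correlated at -0.164 to 0.0547. The number of arrays limits precision. Alternatives were other scalings, filters, probe sets, variance priors, fits to the compared arrays only, a replicate block and leaving out each array.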

Additional observations from a re-analysis of the deposited data

How the results depend on the processing

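Of 767 values recomputed for 46 results on single genes, 705 kept direction and side of the threshold. These results were picked for a small p or a large called change. Every treatment effect among them except Ndrg1 at 72 h was uncalled. Staying uncalled says little where few genes pass. The call for Ndrg1 at 72 h held in 7 of 15 alternative settings. For the effect at 72 h (1 member called), 0 members were called with no filter, with a fit to the compared arrays only, or without _s_at and _x_at probe sets, 2 when the prior variance had a trend, and 0 to 1 when an array was left out. Over all genes, 120 calls became 14 with no filter, 11 in that smaller fit, 283 with a log2 minimum of 6, 422 with a trend, 22 with the replicate block and 9 to 100 without 1 array. The trend also gave 36 genes for the averaged effect (from 2) and 46 and 21 for the differences (from 2 and 4), the log2 minimum of 6 gave 14, 17 and 14, and values as deposited alone gave 8579 changes from 36 to 72 h in control cells (from 5590). For the averaged effect (0 called), 1 member was called with the log2 minimum of 6, with the replicate block or with a trend, and 0 to 1 with an array left out. For the difference of effects between 72 and 36 h 1 was called with a trend, and between 72 and 48 h 1 with a trend and 1 with the log2 minimum of 6, against 0. The step from 36 to 48 h in control cells (6 called) gave 12 with median centring alone, 10 as deposited alone, 3 with only the arrays compared and 3 to 5 with an array left out. In Antagomir-31 cells (9 called) it gave 1 with only the arrays compared and 1 to 6 with an array left out. With an array left out, 36 to 72 h gave 23 to 25 in control cells and 22 to 24 in Antagomir-31 cells, and 48 to 72 h 24 to 25 and 19 to 23. The replicate block kept the 1 call at 72 h, added Ndrg1 on average and left every other count of members within 1.5 times (over all genes it gave 1 for the averaged effect and 1 for each difference from 72 h), and a crossed block at 48 h, chosen after seeing the data, called 0 members. Some of these settings tested other numbers of genes or used fewer arrays. The cause of the differences in counts was not tested.

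Reversals came from other probe sets of the same gene. Ak4 under Antagomir-31 read -0.0393 at 36 h, -0.0177 and -0.0993 at 48 h and -0.000877 and -0.0388 on average, and 0.124 from 36 to 48 h in control cells. Higd1a at 72 h read 0.042. In control cells Ndrg1 read 0.00559, 0.23 and 0.511 from 36 to 72 h and 0.152, 0.0754 and 0.57 from 48 to 72 h (0.23 and 0.0754 also without _s_at and _x_at probe sets). P4ha1 read 0.488 and Slc2a3 0.556 from 36 to 72 h, Slc2a3 0.191 and Pfkp 0.436 and 0.991 from 48 to 72 h, and Vegfa 0.299 and 0.438 in these steps (Slc2a3 alike without _s_at and _x_at probe sets). The cause was not tested. With 2 or 3 arrays a group, small effects were not resolved.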
